A study of Mus musculus with 10 samples.

Results

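The enzymes that make serine and pass its carbon to folate were measured as mRNA in the hippocampus of mice of 2 genotypes at 6 months of age, 5 labelled TfamAKO and 5 wild type (WT), with 1 library per mouse. Tfam is a mitochondrial transcription factor that coats mitochondrial DNA, and the study's title concerns astrocytic mitochondria. The labels name neither the promoter driving the deletion nor the deleted part of the gene, and no allele or treatment shared by both genotypes. The mRNA libraries came from total RNA of the whole tissue, and the deposited estimated counts summed to between 19558377 and 28675367 per library in TfamAKO and between 16584245 and 26032470 in WT. The enzymes were chosen by gene symbol, with no measured value in the rule, though with earlier results of these data known. All 10 of 10 were found among the 20156 gene rows. Each of the 10 passed the filter on low counts.

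Serine is made from a glycolytic intermediate by Phgdh, Psat1 and Psph in turn. Serine hydroxymethyltransferase then moves a carbon of serine onto tetrahydrofolate (THF), which yields glycine. The folate-bound carbon is either used for thymidylate before it is oxidised, or is oxidised to formyl-THF. As formyl-THF it is released as formate, used for purines, or burned to carbon dioxide. These steps run in parallel in the mitochondrial matrix (Shmt2, Mthfd2, Mthfd2l, Mthfd1l, Aldh1l2) and in the cytosol (Shmt1, Mthfd1, and Aldh1l1, which is not one of the 10). In brain, Phgdh protein is found mainly in astrocytes, and Aldh1l1 is a widely used astrocyte marker.

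All 3 enzymes of serine synthesis were higher in TfamAKO hippocampus, as were 4 of 5 mitochondrial folate enzymes, while Mthfd2l was lower. Neither Shmt1 nor Mthfd1, the cytosolic enzymes among the 10, passed the test. The log2 fold change of Shmt1, 0.31, was near the 0.37 of Mthfd1l, which passed, so Shmt1 is not shown to be unchanged. Aldh1l1, a cytosolic enzyme outside the 10, rose (log2 fold change 1.29). Of the 10 enzymes, 7 were higher in TfamAKO and 1 was lower (edgeR quasi-likelihood test, Benjamini-Hochberg adjusted over 16180 genes, threshold 0.05). Over all genes tested, 20.8% were higher and 16.6% lower by the same rule. For 6 of the 10, every TfamAKO library lay above every WT library, which held for 14.5% of all genes. The median log2 fold change, TfamAKO over WT, was 1.04 over the 10 enzymes and -0.02 over all genes tested.

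To show the DNA next to the start sites of the enzymes that moved and of their cytosolic counterparts, 6 promoter stretches follow. Promoters of 9 of the 10 enzymes were matched by symbol in RefSeq (build GRCm38.p6). None was found for Aldh1l2, the enzyme with the largest fold, so it was not searched. Each stretch is the 150 bases before the annotated start, in the direction of the gene. Capitals mark CCAAT or its reverse complement ATTGG, a common promoter element bound by the factor NF-Y; this motif was chosen after the sequences had been read. Psat1 lies at chr19:15925060-15925209 on the minus strand (the more upstream of its 2 annotated starts), Phgdh at chr3:98339970-98340119 on the minus strand and Mthfd2 at chr6:83317605-83317754 on the minus strand. Mthfd1 lies at chr12:76255082-76255231 on the plus strand, Shmt2 at chr10:127522445-127522594 on the minus strand and Shmt1 at chr11:60811266-60811415 on the minus strand.
Psat1: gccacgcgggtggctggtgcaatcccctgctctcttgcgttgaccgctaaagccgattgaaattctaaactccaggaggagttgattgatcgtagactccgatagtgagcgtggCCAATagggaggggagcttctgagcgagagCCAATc
Phgdh: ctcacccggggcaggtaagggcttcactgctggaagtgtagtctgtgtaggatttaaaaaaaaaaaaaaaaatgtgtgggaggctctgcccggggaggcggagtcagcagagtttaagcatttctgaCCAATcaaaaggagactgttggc
Mthfd2: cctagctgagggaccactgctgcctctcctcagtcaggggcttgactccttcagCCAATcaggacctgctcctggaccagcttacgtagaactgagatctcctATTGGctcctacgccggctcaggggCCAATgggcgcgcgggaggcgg
Mthfd1: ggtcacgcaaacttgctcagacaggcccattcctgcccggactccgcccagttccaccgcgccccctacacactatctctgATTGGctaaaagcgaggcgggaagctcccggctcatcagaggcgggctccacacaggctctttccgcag
Shmt2: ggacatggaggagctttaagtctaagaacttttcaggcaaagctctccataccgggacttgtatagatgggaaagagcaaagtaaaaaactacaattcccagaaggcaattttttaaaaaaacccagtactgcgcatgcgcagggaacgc
Shmt1: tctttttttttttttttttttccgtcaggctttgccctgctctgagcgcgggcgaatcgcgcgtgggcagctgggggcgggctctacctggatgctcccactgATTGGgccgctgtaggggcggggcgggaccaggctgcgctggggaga
On either strand, the 150 bases held 3 matches in Mthfd2, 2 at the upstream start of Psat1, 2 in Psph, and 1 each in Phgdh, Shmt1 and Mthfd1. Shmt2, Mthfd1l, Mthfd2l and the downstream start of Psat1 held none. Of all 32851 promoters, 24.5% held at least 1 match in the same window, against 6 of the 10 promoters of these 9 enzymes. Since the motif was chosen from these sequences, that difference is no test. The element occurred beside enzymes that rose and beside those that did not pass. The letters TGATGNAA, the core of the element bound by ATF4 with C/EBP partners, were searched on both strands of 300 bases (250 before and 50 after each start). They were in none of the promoters of these 9 enzymes and in 3.97% of all promoters; the search says only that these letters are not in this window.

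The first 3 enzymes carry out serine synthesis. Phgdh, phosphoglycerate dehydrogenase, which commits carbon to the pathway, stood at 149, 165, 142, 147 and 132 CPM (counts scaled to 1000000 per library) in TfamAKO 1 to 5 and at 71.6, 95.7, 85.9, 90.4 and 72.5 CPM in WT 1 to 5. All TfamAKO libraries lay above all WT libraries, and Phgdh rose 1.77-fold (log2 fold change 0.82 ± 0.09 standard error (SE), edgeR adjusted p = 4.50e-05). Psat1, the aminotransferase of the second step, had 283, 354, 323, 343 and 299 CPM in TfamAKO 1 to 5 and 108, 162, 118, 124 and 115 CPM in WT 1 to 5. It rose 2.55-fold with no overlap (log2 fold change 1.35 ± 0.11, edgeR adjusted p = 4.20e-06). Psph, the phosphatase that releases free serine, gave 31.4, 39, 36, 39.2 and 30 CPM in TfamAKO 1 to 5 and 14.9, 17.5, 12.7, 13.9 and 14.1 CPM in WT 1 to 5. Its rise was 2.4-fold, again without overlap (log2 fold change 1.26 ± 0.11, edgeR adjusted p = 6.26e-06). The fold of Phgdh was the smallest of the 3, and the differences between the folds were not tested.

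Among the mitochondrial folate enzymes, Shmt2, which splits serine in the matrix, was measured at 47.6, 55.8, 52, 55 and 52.4 CPM in TfamAKO 1 to 5 and at 19.7, 19.4, 18.5, 20.3 and 21.6 CPM in WT 1 to 5. Both groups were tight, the WT libraries the tightest of the 10 enzymes (coefficient of variation 6.17% in TfamAKO and 5.84% in WT), and Shmt2 rose 2.64-fold (log2 fold change 1.40 ± 0.07, edgeR adjusted p = 7.10e-08). Mthfd2, the NAD-dependent methylene-THF dehydrogenase known for its high level in dividing and tumour cells, had 19.7, 33.6, 38.2, 39.1 and 33.9 CPM in TfamAKO 1 to 5 and 5.77, 6.91, 6.49, 5.28 and 6.29 CPM in WT 1 to 5. TfamAKO 1 stood apart from the other TfamAKO libraries and still lay above every WT library. Mthfd2 rose 5.35-fold (log2 fold change 2.42 ± 0.17, edgeR adjusted p = 1.85e-06).

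Aldh1l2, the formyl-THF dehydrogenase that burns the one-carbon unit and yields NADPH in mitochondria, had the largest fold of the 10 enzymes. It stood at 30.8, 36.6, 33.1, 36.3 and 32.2 CPM in TfamAKO 1 to 5 and at 2.64, 4.15, 3.17, 3.27 and 2.95 CPM in WT 1 to 5. The lowest TfamAKO library was above the highest WT library by a wide margin, and the rise was 10.4-fold (log2 fold change 3.38 ± 0.12, edgeR adjusted p = 8.26e-09). Mthfd1l, the formyl-THF synthetase that releases formate from mitochondria, gave 15.4, 12.4, 15.2, 13.1 and 18.1 CPM in TfamAKO 1 to 5 and 11.1, 11.9, 10.8, 11.2 and 12.6 CPM in WT 1 to 5. Here the groups overlapped, since TfamAKO 2 lay under WT 5. Mthfd1l rose 1.29-fold (log2 fold change 0.37 ± 0.11, edgeR adjusted p = 0.0219). That call was lost without WT 3 (edgeR adjusted p = 0.0511), without WT 3, 4 and 5 (0.159) or without TfamAKO 4 and 5 (0.0556).

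Mthfd2l, the paralog of Mthfd2 that is found in adult mitochondria, was the one enzyme that was lower in TfamAKO. It had 5.54, 6.35, 5.99, 5.45 and 6.09 CPM in TfamAKO 1 to 5 and 7.25, 9.34, 7.22, 6.34 and 7.55 CPM in WT 1 to 5. WT 4 lay within the TfamAKO range and WT 2 was the highest library. The log2 fold change was -0.36 ± 0.12 (edgeR adjusted p = 0.0389). This call was lost in 8 of 10 leave-one-out fits (edgeR adjusted p = 0.0519 to 0.109 in those 8: without WT 1, 2, 3 or 5, or TfamAKO 1, 2, 3 or 4), without WT 3, 4 and 5 (0.0886) and without TfamAKO 4 and 5 (0.109). In the authors' deposited normalized values the difference was larger, at -0.76 on the log2 scale with a pseudocount of 0.5 (limma adjusted p = 0.00274).

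**Figure D1:**
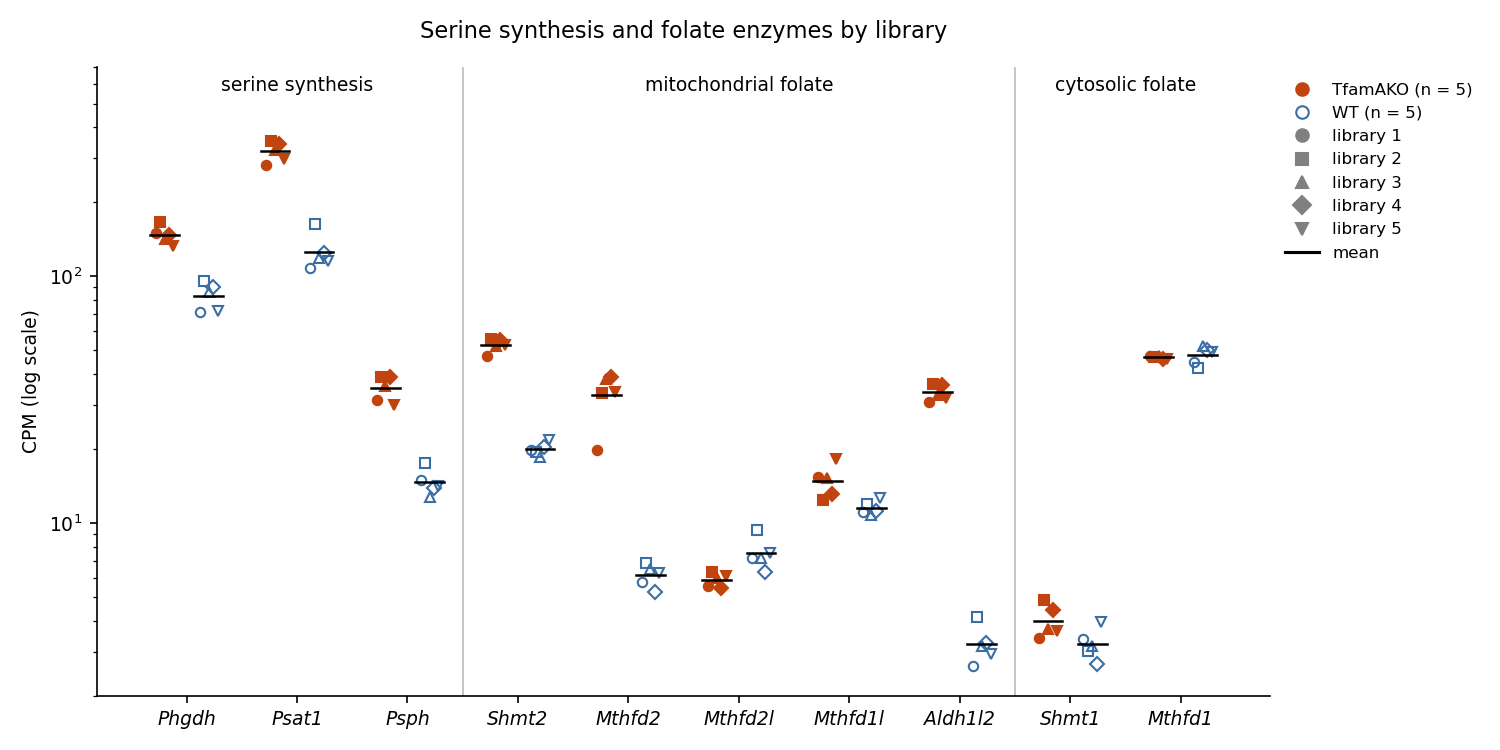
Level of each enzyme mRNA in every library, in CPM on a log axis, with TfamAKO (filled) left of WT (open), the marker shape giving the library number and the black line the mean of 5. Phgdh, Psat1, Psph, Shmt2, Mthfd2 and Aldh1l2 are separated between the genotypes, and TfamAKO 1 sits at 19.7 CPM for Mthfd2, below the other 4 TfamAKO libraries.

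The cytosolic enzymes Shmt1 and Mthfd1 did not pass the test. Shmt1, the cytosolic counterpart of Shmt2, was a low transcript, with 3.44, 4.87, 3.74, 4.43 and 3.66 CPM in TfamAKO 1 to 5 and 3.38, 3.02, 3.17, 2.68 and 3.99 CPM in WT 1 to 5. These values came from 69 to 126 counts per library in TfamAKO and 55 to 104 in WT, and the groups overlapped. The log2 fold change of Shmt1 was 0.31 ± 0.16 (edgeR adjusted p = 0.141), with a 95% interval of -0.03 to 0.66. Mthfd1, the cytosolic enzyme that joins the dehydrogenase, cyclohydrolase and synthetase activities in one protein, had 47.7, 46.9, 47.6, 46 and 46 CPM in TfamAKO 1 to 5 and 44.9, 42.4, 51.9, 50.3 and 49.4 CPM in WT 1 to 5. All TfamAKO libraries lay inside the WT range. The log2 fold change of Mthfd1 was -0.03 ± 0.06 (edgeR adjusted p = 0.746), with a 95% interval of -0.17 to 0.11, so changes beyond these bounds are outside the interval. The WT libraries with the highest Mthfd1 were WT 3, 4 and 5, and without them the sign turned (log2 fold change 0.13, edgeR adjusted p = 0.296).

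**Figure D2:**
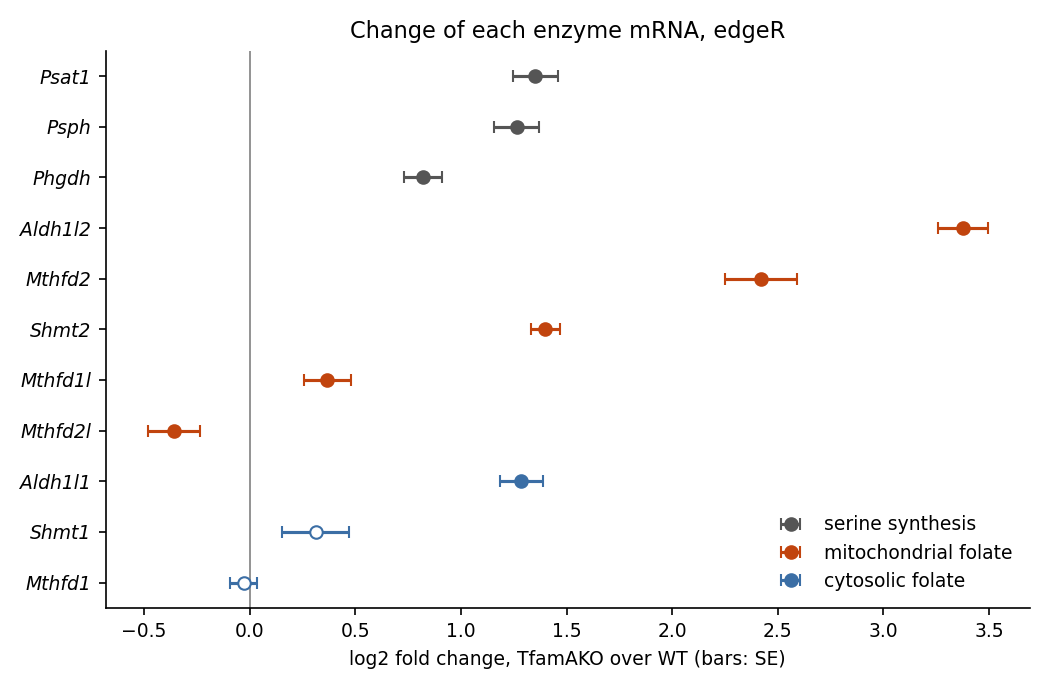
Log2 fold change, TfamAKO over WT, of each enzyme with its SE, in 3 groups: serine synthesis, mitochondrial folate and cytosolic folate (with Aldh1l1 added). Filled points passed the adjusted p threshold of 0.05 and open points did not; Aldh1l2 lies farthest right at 3.38 and Mthfd2l is the one point below 0 that passed.

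Mitochondrial and cytosolic enzymes were then compared within each library, as the log2 ratio of the counts of a mitochondrial enzyme to those of its cytosolic counterpart. Library scaling cancels in such a ratio; transcript length does not, so only the difference between genotypes is read. The mitochondrial partner gained on the cytosolic one in TfamAKO in 4 ratios, of Shmt2, Mthfd2, Mthfd1l and Aldh1l2, and lost in 1 further ratio, of Mthfd2l, that was added after the data had been seen (two-sided exact permutation test over all assignments of libraries to genotypes, Benjamini-Hochberg adjusted over the first 4). The first 4 ratios were also chosen with earlier results of these data known. With 5 libraries against 5, p cannot go below 0.00794.

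For serine hydroxymethyltransferase, there were 13.7, 11.4, 13.8, 12.4 and 14.3 Shmt2 counts per Shmt1 count in TfamAKO 1 to 5 and 5.79, 6.39, 5.8, 7.53 and 5.4 in WT 1 to 5. The groups were apart, and the log2 ratio averaged 3.71 ± 0.13 in TfamAKO and 2.62 ± 0.19 in WT (SD, n = 5 each). The difference was 1.09 ± 0.10 (SE), a 2.13-fold shift (exact p = 0.00794, adjusted 0.0106). For the dehydrogenase step, the Mthfd2 to Mthfd1 ratio of counts was 0.413, 0.718, 0.803, 0.851 and 0.736 in TfamAKO 1 to 5 and 0.129, 0.163, 0.125, 0.105 and 0.128 in WT 1 to 5. This was the ratio with the largest shift of the 4, 5.3-fold, with TfamAKO 1 between the other TfamAKO libraries and WT (log2 difference 2.41 ± 0.21, exact p = 0.00794, adjusted 0.0106).

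For the synthetase step, Mthfd1l to Mthfd1 stood at 0.323, 0.265, 0.319, 0.286 and 0.394 in TfamAKO 1 to 5 and at 0.247, 0.282, 0.207, 0.223 and 0.255 in WT 1 to 5. The groups overlapped at TfamAKO 2 and WT 2, and the shift was 1.3-fold (log2 difference 0.38 ± 0.12, exact p = 0.0159, adjusted 0.0159). It did not pass without TfamAKO 4 and 5 (difference 0.32, exact test adjusted p = 0.0714). For formyl-THF dehydrogenase, Aldh1l2 to Aldh1l1 was 0.229, 0.22, 0.235, 0.225 and 0.24 in TfamAKO 1 to 5 and 0.0533, 0.0616, 0.0448, 0.0566 and 0.0534 in WT 1 to 5. The ratio was held within a narrow band in TfamAKO and shifted 4.28-fold (log2 difference 2.10 ± 0.08, exact p = 0.00794, adjusted 0.0106).

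Mthfd2l, set against the same partner as Mthfd2, went the other way. Its ratio to Mthfd1 was 0.117, 0.136, 0.126, 0.119 and 0.133 in TfamAKO 1 to 5 and 0.162, 0.221, 0.139, 0.127 and 0.153 in WT 1 to 5. WT 4 lay within the TfamAKO range, and the log2 difference was -0.32 ± 0.14 (exact p = 0.0317, adjusted over 5 ratios 0.0317). It did not pass without TfamAKO 1, 3 or 4 or without WT 2 (exact test adjusted p = 0.0556 to 0.0794), and without WT 2 the difference was -0.20. Adjusted over 5 ratios, the exact p was 0.0132 for Shmt2, Mthfd2 and Aldh1l2 and 0.0198 for Mthfd1l.

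**Figure D3:**
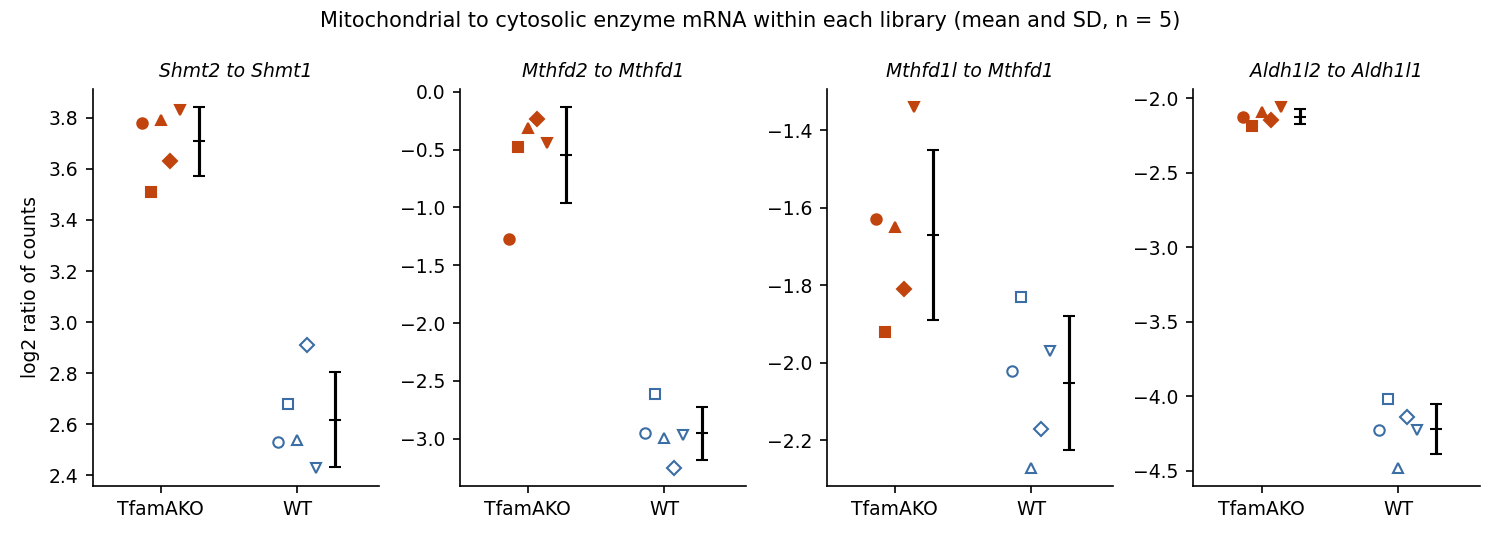
Log2 ratio of mitochondrial to cytosolic enzyme counts in each library (points, shaped by library number) with the mean and SD of 5, TfamAKO left of WT, in 4 panels with separate vertical axes. The groups are apart in 3 panels and overlap for Mthfd1l to Mthfd1; the ratio of Mthfd2l is not drawn.

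Aldh1l1, the cytosolic partner of Aldh1l2, rose itself. It had 135, 167, 141, 161 and 134 CPM in TfamAKO 1 to 5 and 50.1, 67.7, 71.3, 58.1 and 55.6 CPM in WT 1 to 5 (log2 fold change 1.29 ± 0.10, edgeR adjusted p = 4.37e-06). Aldh1l2 gained on Aldh1l1 although both rose. Among other cytosolic genes of folate handling, Mthfs, which recycles 5-formyl-THF, rose (log2 fold change 0.90 ± 0.24, edgeR adjusted p = 0.0115) and lost its call without WT 3, 4 and 5 (0.122) or without TfamAKO 4 and 5 (0.0606). Of the 5 tested genes in that list, Aldh1l1 included, 2 rose and 0 fell.

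Levels were set against each other per kilobase of the longest protein-coding transcript. In TfamAKO the order ran Psat1 (122 ± 11.4 CPM per kb), Phgdh (77.7 ± 6.41), Shmt2 (23.0 ± 1.42), Psph (20.3 ± 2.45), Mthfd2 (15.8 ± 3.73), Mthfd1 (14.4 ± 0.257), Aldh1l2 (5.61 ± 0.42), Mthfd1l (4.02 ± 0.608), Mthfd2l (2.73 ± 0.175) and Shmt1 (1.41 ± 0.209, SD, n = 5). In WT it ran Psat1 (47.9 ± 8.07), Phgdh (44.0 ± 5.69), Mthfd1 (14.7 ± 1.23), Shmt2 (8.70 ± 0.508), Psph (8.43 ± 1.04), Mthfd2l (3.49 ± 0.512), Mthfd1l (3.12 ± 0.202), Mthfd2 (2.95 ± 0.306), Shmt1 (1.14 ± 0.17) and Aldh1l2 (0.537 ± 0.0936). The mean level of Mthfd2 was not below that of Mthfd1 in TfamAKO and was below it in WT, and Aldh1l2 was last in WT but not in TfamAKO. This order is of group means and need not hold in each library. Neighbours whose mean ± SD ranges overlapped were Shmt2 and Psph, Psph and Mthfd2, and Mthfd2 and Mthfd1 in TfamAKO, and Psat1 and Phgdh, Shmt2 and Psph, Mthfd2l and Mthfd1l, and Mthfd1l and Mthfd2 in WT. The order depends on the length used: with the median transcript length, Psph came before Shmt2 in TfamAKO (43.8 against 23.2 CPM per kb), Mthfd2 stood at 26.0 against 15.4 CPM per kb for Mthfd1 in TfamAKO, and Phgdh came before Psat1 in WT (71.1 against 54.7 CPM per kb).

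Single libraries were high or low for several enzymes. TfamAKO 1 was the lowest TfamAKO library for 5 of the 10 enzymes (Psat1, Shmt2, Mthfd2, Aldh1l2 and Shmt1), and TfamAKO 2 was the highest for 6. In WT, library 2 was the highest for 6 (Phgdh, Psat1, Psph, Mthfd2, Mthfd2l and Aldh1l2), and it was also the highest WT library in summed astrocyte (5485 CPM), microglial (423 CPM), oligodendrocyte (9026 CPM) and endothelial (308 CPM) markers. TfamAKO 1, by contrast, had the highest summed astrocyte markers of all libraries (7162 CPM). Its microglial (651 CPM) and endothelial (360 CPM) sums were the lowest in TfamAKO. TfamAKO 1 also lay nearest to WT on the first principal component of all genes, at 12.2 against 37.1 to 52.7 for the other TfamAKO libraries and -46.2 to -34.8 for WT. The coefficient of variation in TfamAKO ran from 1.78% for Mthfd1 to 23.7% for Mthfd2.

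Libraries also stood apart for reasons other than these enzymes. Tfam itself was at 19.6 to 23.6 CPM in TfamAKO and 20.6 to 33 CPM in WT (log2 fold change -0.40 ± 0.12 with an edgeR adjusted p of 0.0204), a call lost under 7 of 22 alternatives: without TfamAKO 3, WT 2, WT 4 or TfamAKO 4 and 5 (0.0507 to 0.0589), and in the deposited normalized values (limma adjusted p = 0.117). The Y chromosome gene Kdm5d reached 22.4 CPM or more in TfamAKO 4 and 5 and at most 0.699 CPM in every other library. Xist, a transcript of female cells, was at 0.141 and 0 CPM in TfamAKO 4 and 5. In every other library it was at 200.5 to 467 CPM. By these genes TfamAKO 4 and 5 were male and all other mice, every WT mouse included, were female. Sex was therefore unbalanced between the genotypes, and it was no term of the fit. Ttr, a choroid plexus transcript, ranged from 15.5 to 107 CPM in TfamAKO and from 2509.5 to 5142 CPM in WT 3, 4 and 5, with 14.3 CPM in WT 1 and 122 CPM in WT 2. Without TfamAKO 4 and 5, and likewise without WT 3, 4 and 5, 6 of the enzymes were higher and 0 lower. Of all 16180 genes, 2834 were higher and 2096 lower in the first fit, and 1996 and 755 in the second. Phgdh, Psat1, Psph, Shmt2, Mthfd2 and Aldh1l2 passed in both, with log2 fold changes of 0.87, 1.35, 1.28, 1.38, 2.31 and 3.36 without TfamAKO 4 and 5 and 0.835, 1.27, 1.14, 1.45, 2.39 and 3.31 without WT 3, 4 and 5 (edgeR).

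Cell type markers moved as well, and their counts stand against 20.8% of all genes higher and 16.6% lower. In whole tissue, fewer cells of a type and less RNA per cell cannot be told apart. Of 10 astrocyte markers, 3 were higher and 4 lower, and their summed level was 4588 to 7162 CPM in TfamAKO and 4452 to 5485 CPM in WT. Of 10 neuronal markers 0 were higher and 6 lower (8928 to 10535 CPM in TfamAKO, 11375 to 12436 CPM in WT). Of 10 microglial markers 9 were higher and 0 lower (651 to 797 CPM in TfamAKO, 362 to 423 CPM in WT), and of 10 endothelial markers 8 and 0 (360 to 565 CPM in TfamAKO, 233 to 308 CPM in WT). Oligodendrocyte markers gave 3 higher and 0 lower of 10 (5931 to 8038 CPM in TfamAKO, 5191 to 9026 CPM in WT), and choroid plexus markers 0 and 10 (43.1 to 141 CPM in TfamAKO, 56.1 to 5743 CPM in WT). Cell cycle genes gave 8 higher and 0 lower of 12 tested (108 to 122 CPM in TfamAKO, 90.9 to 98 CPM in WT). No marker was at 0 counts in any library, and the part of these shifts in the enzyme levels was not tested.

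In 8 lists of neighbouring metabolism, 17 of 43 tested genes were higher (39.5%, against 20.8% of all genes) and 8 were lower (18.6%, against 16.6%), with a median log2 fold change of 0.14. With 5 transcription factors of the ATF4 axis added, 21 of 48 were higher and 8 lower, and without WT 3, 4 and 5 those counts were 12 and 3. Over all genes tested, leaving out the same libraries took the counts from 3369 higher and 2679 lower to 1996 and 755. Counts in the short lists that follow, such as 1 of 4, can lie near the share over all genes. In glycine cleavage, which takes glycine apart in mitochondria and feeds the same folate pool, 1 of 4 rose and 0 fell. The aminomethyltransferase Amt rose (log2 fold change 0.56 ± 0.08, edgeR adjusted p = 0.000345). Glycine decarboxylase Gldc had 72.3 ± 21.6 CPM in TfamAKO and 53.9 ± 7.63 CPM in WT (SD, n = 5 each) and did not pass (0.42 ± 0.18, edgeR adjusted p = 0.0875). It passed without TfamAKO 1 (0.0212) or TfamAKO 5 (0.0366) and with the replicate number as a block (0.0183). The carrier protein gene Gcsh (-0.03 ± 0.08 on the log2 scale, edgeR adjusted p = 0.806) and Dld, the shared dehydrogenase (0.08 ± 0.05, 0.214), did not pass.

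Of the other mitochondrial folate genes, 1 of 4 tested rose and 0 fell. Sardh, sarcosine dehydrogenase, which yields glycine and a one-carbon unit, had 45.0 ± 4.86 CPM in TfamAKO and 13.7 ± 1.08 CPM in WT (SD, n = 5 each; log2 fold change 1.71 ± 0.09, edgeR adjusted p = 1.79e-07). The genes that bring substrate into the matrix did not pass: Slc25a32, the mitochondrial folate carrier (-0.12 ± 0.13, edgeR adjusted p = 0.493), and Sfxn1, the mitochondrial serine carrier (-0.03 ± 0.09, 0.838). Mtfmt, which uses formyl-THF to formylate the initiator tRNA of mitochondria, did not pass either (-0.04 ± 0.12, 0.833). The signs of Slc25a32, Sfxn1, Mtfmt and Gcsh turned under some alternatives. Dmgdh was removed by the filter on low counts.

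Purine synthesis uses cytosolic formyl-THF, and 3 of its 6 tested genes rose and 0 fell, all by little. Atic (log2 fold change 0.33 ± 0.07, edgeR adjusted p = 0.00397), Paics (0.29 ± 0.06, 0.00468) and Adsl (0.23 ± 0.08, 0.0405) were those 3, and Adsl lost its call under 16 of 22 alternatives. In the methionine cycle, which takes methyl groups from folate, 2 of 8 tested genes rose and 4 fell. The 2 that rose were Mat2a (log2 fold change 0.32 ± 0.10, edgeR adjusted p = 0.0213) and Ahcy, the hydrolase of S-adenosylhomocysteine (0.23 ± 0.08, 0.044). Neither was followed singly under the alternatives. Ahcyl2 (-0.44 ± 0.09, edgeR adjusted p = 0.00245) and Ahcyl1 (-0.25 ± 0.06, 0.00514), relatives of the hydrolase of S-adenosylhomocysteine, were lower, and so was Mtrr (-0.46 ± 0.13, 0.0136), which reactivates methionine synthase. Those 3 calls were lost without WT 3, 4 and 5 (edgeR adjusted p = 0.121, 0.0918 and 0.379). The Mtrr call was also lost without TfamAKO 4 and 5 (0.0651) and in the deposited normalized values (limma adjusted p = 0.102 to 0.104).

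Transsulfuration draws serine into cysteine, and its 2 genes moved in opposite directions. Cth, which releases cysteine, had 12.7 ± 1.01 CPM in TfamAKO and 3.01 ± 0.57 CPM in WT (log2 fold change 2.07 ± 0.14, edgeR adjusted p = 1.20e-06). Cbs, which joins serine to homocysteine, had 28.9 ± 3.32 CPM in TfamAKO and 44.2 ± 7.64 CPM in WT (-0.61 ± 0.12, edgeR adjusted p = 0.00176; SD, n = 5 each). Of 9 tested genes for transport and use of serine and glycine, 5 rose and 2 fell. The neutral amino acid transporter Slc1a5 had 79.5 ± 23.7 CPM in TfamAKO and 2.71 ± 1.04 CPM in WT (log2 fold change 4.84 ± 0.29, edgeR adjusted p = 4.72e-07). Slc7a10, a carrier of small neutral amino acids that moves D-serine, had 7.84 ± 1.70 CPM in TfamAKO and 41.8 ± 8.70 CPM in WT (-2.42 ± 0.17, edgeR adjusted p = 1.50e-06). Sdsl, a relative of serine dehydratase, rose (1.23 ± 0.14, edgeR adjusted p = 4.32e-05).

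For folate uptake and storage, 2 of 5 tested genes rose and 1 fell. Slc19a1, the reduced folate carrier, rose (log2 fold change 0.52 ± 0.14, edgeR adjusted p = 0.0108), with its call lost without TfamAKO 4 and 5 (0.0502). Fpgs, which traps folate as polyglutamate, rose (0.47 ± 0.16, edgeR adjusted p = 0.0363) and lost its call under 12 of 22 alternatives. The folate receptor Folr1 fell to 0.926 ± 0.114 CPM in TfamAKO, against 18.0 ± 15.9 CPM in WT (SD, n = 5 each; -4.28 ± 0.88, edgeR adjusted p = 0.00269). Folr1 is also on the list of choroid plexus markers, and without WT 3, 4 and 5 its log2 fold change was -0.42 (edgeR adjusted p = 0.433).

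**Figure D4:**
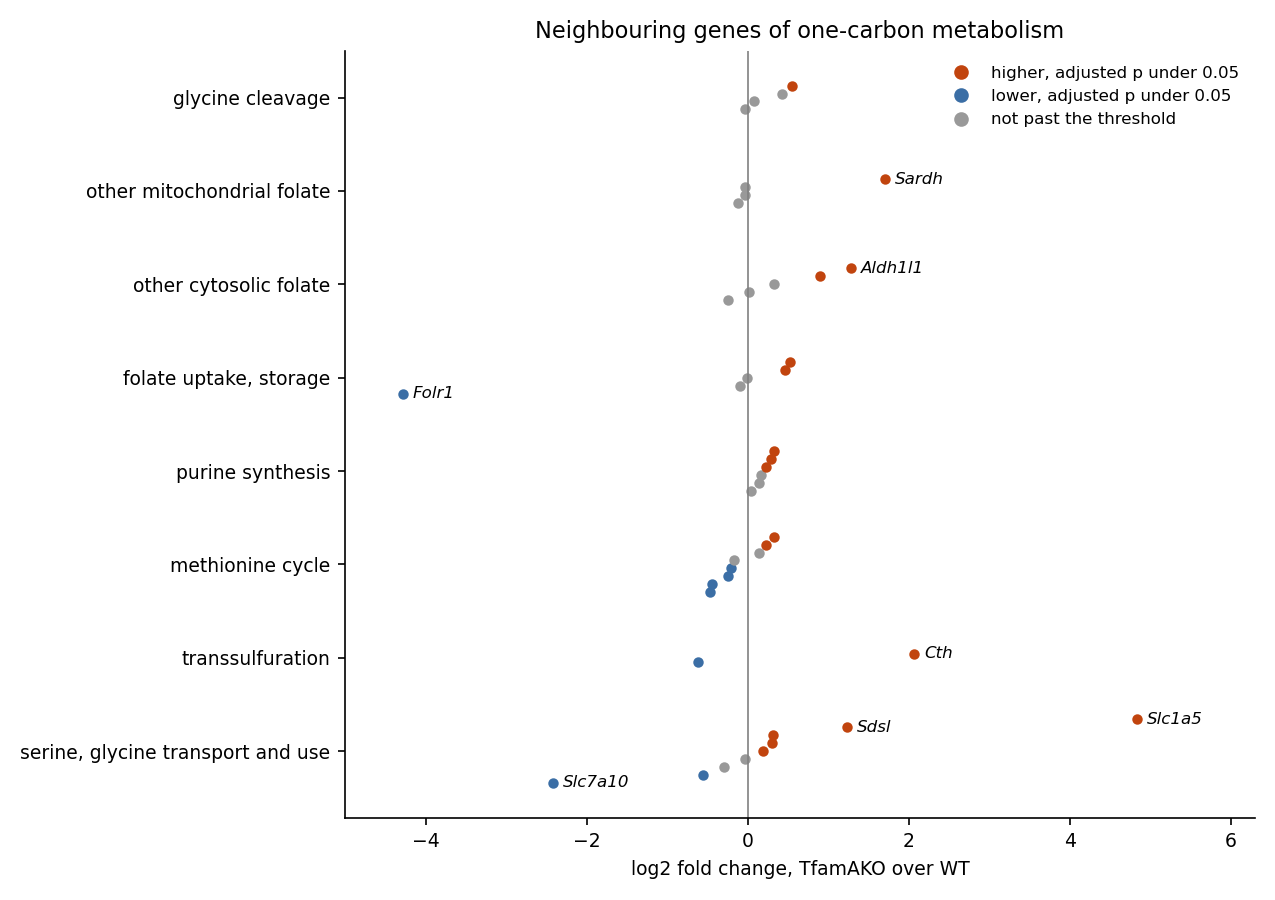
Log2 fold change, TfamAKO over WT, of each tested gene in 8 lists of neighbouring metabolism, coloured by direction where the adjusted p passed 0.05. Points beyond 1 in either direction are named; Slc1a5 lies farthest right at 4.84 and Folr1 farthest left at -4.28.

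The genes with the pattern most like that of Mthfd2 were sought among 14780 other genes averaging at least 1 CPM, by the mean absolute difference of log2 CPM over the 10 libraries after centring on the WT mean. They were Mgmt (0.151), Msn (0.16), Tnfrsf1a (0.165) and Fcgr2b (0.173). For Phgdh, the same measure named Plek (0.0591), Plcb3 (0.0664), Mpst (0.0693) and Hsdl2 (0.0786). Nearness by this measure comes mainly from a similar fold between the genotypes, which the log2 fold changes of 2.36 to 2.75 in the first set and 0.766 to 0.835 in the second show.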

How the data were processed

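Gene expression in hippocampus was compared between 5 TfamAKO and 5 WT libraries. The authors deposited estimated counts per gene, unnormalized and all whole numbers, so rounding changed no value. They also deposited normalized values, treated as a signal of unstated making. Salmon (no version) and DESeq2 1.26.0 are listed in the submitters' processing notes; the genome build was not given in the sources used here, nor was the annotation. Tests ran in edgeR 4.0.16 under R 4.3.3. The filter filterByExpr (minimum count 10) kept 16180 of 20156 genes. Genotype was the sole term of the quasi-likelihood fit, with TMM factors and Benjamini-Hochberg adjustment over all genes tested and a threshold of 0.05. SE is the absolute log2 fold change over the square root of F, and CPM is scaled by the effective library size. Ratios used counts plus 0.5. Transcript lengths are from GENCODE M21 and promoters from RefSeq GRCm38.p6. Alternatives used limma 3.58.1 and DESeq2 1.42.0. The steps were tested on simulated data. The enzymes, gene lists and tests were chosen with earlier results of these data known. Genes named are the 10 enzymes, Aldh1l1, Tfam, Atf4, all tested genes of glycine cleavage and of the other mitochondrial folate list, and up to 3 genes with the smallest p in each further list; 1 of these is not reported here. The labels give no litter or batch, so p-values measure the spread between these mice only. Reads carry no stated molecular identifiers, so counts are not independent molecules.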

Additional observations from a re-analysis of the deposited data

Results flagged for a closer look

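Both flags concern 1 library. Mthfd2 in TfamAKO 1, at 19.7 CPM, lay far below the other 4 TfamAKO libraries (33.6 to 39.1 CPM), with a gap beyond Dixon's 95% critical value of 0.71 for 5 samples. The log2 ratio of Mthfd2 to Mthfd1 in the same library, at -1.27, was set apart in the same way and rests on the same Mthfd2 count. Of 30 groups of 5 tested in this way, 2 were set apart, and chance alone sets apart about 1 in 20. Without TfamAKO 1 the log2 fold change of Mthfd2 was 2.56, against 2.42 with it.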

How the results depend on the processing

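Of the 10 enzymes, Phgdh, Psat1, Psph, Shmt2, Mthfd2 and Aldh1l2 kept direction and call, and Shmt1 stayed short of the threshold, under all 22 alternatives: other scalings, filters and tests, the deposited normalized values, the block and left-out libraries. Leaving out 1 library gave 2823 to 3758 genes higher and 1988 to 3274 lower over the whole table, 6 to 7 enzymes higher and 0 to 1 lower, and 15 to 22 other pathway genes higher and 7 to 9 lower. Log2 differences of the ratios were then 1.04 to 1.16 (Shmt2 to Shmt1), 2.33 to 2.59 (Mthfd2 to Mthfd1), 0.30 to 0.44 (Mthfd1l to Mthfd1), -0.402 to -0.201 (Mthfd2l to Mthfd1) and 2.03 to 2.15 (Aldh1l2 to Aldh1l1). Without WT 3, 4 and 5, 1996 genes were higher and 755 lower, 0 enzymes lower, and 12 and 3 other pathway genes higher and lower; the ratios differed by 1.10, 2.23, 0.253 and 2.0 (exact test adjusted p = 0.0635, 0.0635, 0.19 and 0.0635), where the smallest exact p for 5 against 2 is 0.0476. The Mthfd2l to Mthfd1 difference was then -0.588 (0.0595 over 5 ratios), -0.322 without TfamAKO 4 and 5 (0.107) and -0.323 with the replicate number as a block (0.0781). Without TfamAKO 4 and 5, 2834 genes were higher and 2096 lower over the whole table, and 0 enzymes were lower. The Mthfd1l to Mthfd1 difference was then 0.32 (exact test adjusted p = 0.0714). Deviations of same-numbered libraries from their group means correlated at -0.142 to 0.0691 over genes. These values cannot show whether same-numbered mice shared a litter or batch, which the labels do not give. With the replicate number as a block, 3134 genes were higher and 2545 lower over the whole table, and 0 enzymes were lower. The ratios then differed by 1.09, 2.41, 0.38 and 2.10 with adjusted p of 0.0833, 0.0833, 0.125 and 0.0833 (exact sign-flip test, whose smallest p with 5 pairs is 0.0625). Signs near 0 turned, with the cause not tested. Leaving out 1 library gave log2 fold changes of -0.0546 to 0.00245 for Mthfd1 (above 0 without WT 3), -0.0717 to 0.0234 for Gcsh (without TfamAKO 5), -0.0951 to 0.0454 for Mtfmt (without TfamAKO 3, 0.00175, or WT 1) and -0.134 to 0.0072 for Sfxn1 (without TfamAKO 2, 0.00588, or TfamAKO 5). Without WT 3, 4 and 5 the values were 0.126 for Mthfd1 and 0.0327 for Sfxn1, and without TfamAKO 4 and 5 they were 0.0683 for Gcsh and 0.0306 for Sfxn1. In the deposited normalized values at pseudocounts of 0.5, 1 and 5, Slc25a32 gave 0.0224, 0.0223 and 0.0221 and Mtfmt 0.00504, 0.00504 and 0.00505.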

Other observations

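Transcription factors of the ATF4 axis, which is known to induce serine and folate enzymes, were also higher: 4 of 5 tested genes rose and 0 fell, against 20.8% and 16.6% of all genes. Atf4 stood at 119.8, 128, 133, 101 and 136 CPM in TfamAKO 1 to 5 and at 75.8, 102, 69.6, 75.7 and 79.1 CPM in WT 1 to 5, so that WT 2 lay just above TfamAKO 4 (log2 fold change 0.62 ± 0.11, edgeR adjusted p = 0.00109). The Atf4 call was lost without WT 3, 4 and 5 (edgeR adjusted p = 0.0614). Atf5 (log2 fold change 2.45 ± 0.13, edgeR adjusted p = 2.35e-07), Ddit3 (2.05 ± 0.15, 2.65e-06) and Cebpb (0.96 ± 0.10, 3.63e-05) rose with groups that did not overlap. Any part of these factors in the enzyme levels was not tested.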
